A study of Mus musculus with 24 samples.

Results

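The genes of iron uptake, storage and export were followed through RNA sequencing of mouse bone-marrow-derived macrophages. They are 8 of the 47372 genes in the deposited tables, chosen by symbol: the importers and carriers Tfrc, Slc11a1 and Slc11a2, the ferritin chains Fth1 and Ftl1, the exporter Slc40a1, the ferroxidase Cp and the hormone gene Hamp. Each symbol matched 1 row on a numbered chromosome. In GRCm38, Tfrc lies at chr16:32608920-32632794, Slc11a1 at chr1:74375195-74386062, Slc11a2 at chr15:100387898-100425072, Fth1 at chr19:9982703-9985092 and Ftl1 at chr7:45457944-45459884. Slc40a1 lies at chr1:45908068-45926523, Cp at chr3:19957054-20009145 and Hamp at chr7:30942368-30944032. The study gave 24 libraries, 1 for each of 4 treatments in macrophages of 6 mice, and asked, by its design, how responses differ when the liver X receptors (LXR), sterol-activated transcription factors, are missing. DKO mice are double knockouts of LXRα and LXRβ, and LXR-positive mice have both receptors. There were 3 mice per genotype, all labelled C57BL/6J and 8 to 12 weeks of age.

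The 8 groups, with 3 libraries each, were DKO and LXR-positive macrophages given KLA, GW3965, AcLDL or vehicle. KLA (Kdo2-lipid A, an agonist of the endotoxin receptor TLR4) was used at 100 ng/ml, GW3965 (a synthetic LXR agonist) at 1 µM and AcLDL (acetylated low-density lipoprotein, which loads macrophages with cholesterol) at 50 µg/ml. Vehicle, KLA and GW3965 were given on day 5 of culture for 17 hours. The labels give no duration for AcLDL. All cultures were grown in medium with 30% L929-conditioned medium. The labels describe knockout mice and name no promoter or cell type that limits the deletions, so they are not described as restricted to macrophages. C57BL/6 mice are known to carry a loss-of-function coding variant of Slc11a1, shared by both genotypes if the knockout is on that strain, so its transcript level does not stand for transporter activity.

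Macrophages take iron from transferrin through the transferrin receptor and from haem of engulfed red cells, store it in ferritin and release it through ferroportin. When cells are iron-poor, the iron regulatory proteins bind iron-responsive elements, short hairpins in transcripts. Bound at the 5′ untranslated region (UTR) they block translation, as in ferritin and ferroportin, and bound at the 3′ UTR of the transferrin receptor transcript they protect it from decay. Hepcidin, made mainly in the liver from Hamp, makes ferroportin protein be degraded, and endotoxin is known to lower ferroportin transcripts in macrophages. Part of this control acts on translation or protein stability and is not seen in transcript levels.

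The hairpins are shown because they are where transcripts of the same pathway are controlled in opposite ways. They were found in the reference genome (GRCm38) with the pattern C, 5 bases, the loop CAGTGN, and 5 bases that pair with the first 5, G·U pairs allowed, on the sense strand of annotated UTRs. Letters run 5′ to 3′ with the loop in capitals, and 6 bases flank the pattern on each side.
Slc40a1, 5′ UTR, chr1:45925465-45925493, minus strand: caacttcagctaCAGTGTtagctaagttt
Fth1, 5′ UTR, chr19:9982732-9982760, plus strand: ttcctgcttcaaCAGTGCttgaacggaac
Ftl1, 5′ UTR, chr7:45459779-45459807, minus strand: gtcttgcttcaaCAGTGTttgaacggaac
Tfrc, 3′ UTR, chr16:32631219-32631247, plus strand: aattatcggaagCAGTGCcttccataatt
Tfrc, 3′ UTR, chr16:32631598-32631626, plus strand: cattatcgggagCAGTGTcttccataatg
Tfrc, 3′ UTR, chr16:32631663-32631691, plus strand: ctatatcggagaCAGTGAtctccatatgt
Tfrc, 3′ UTR, chr16:32631710-32631738, plus strand: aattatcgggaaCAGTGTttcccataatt

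Both ferritin chains and Slc40a1 thus carry 1 match each in the 5′ UTR and Tfrc carries 4 in the 3′ UTR. The same pattern was present in the 5′ UTR of 31 of 20597 genes (0.151%) and in the 3′ UTR of 129 of 20995 genes (0.614%). A match is a description of the letters and not a measured site, and the search returned none for the other 4 genes with these letters.

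Library depth ran from 9705391 to 27189081 reads assigned to genes in the 12 DKO libraries and from 6448579 to 17348717 in the 12 LXR-positive libraries, so depth moved with genotype, and the effects of depth and genotype cannot be told apart. Depth also moved with treatment. LXR-positive vehicle libraries had at least 10540385 reads and treated ones at most 10179626. DKO vehicle libraries had at least 20659071, against at most 18739975 with GW3965 or AcLDL, and overlapped those with KLA (up to 21644900). Where depths were separate, the effects of depth and treatment cannot be told apart either. The 9 macrophage markers examined had reads in every library, and Csf1r, the receptor for the growth factor that sustains macrophages, had at least 16468 normalized counts in each. Nr1h2, which encodes LXRβ, lay between 275 and 399 normalized counts in DKO libraries and between 438 and 821 in LXR-positive libraries, with no overlap. Nr1h3, which encodes LXRα, overlapped between genotypes, and a total over the whole gene does not check the deleted exons. In bulk samples, fewer cells of a type and less RNA per cell cannot be told apart. Values below are normalized counts per gene, which are comparable between libraries but not between genes of different length. Each mouse gave 1 library per treatment, so the libraries within a group came from different mice and their spread entered the tests. The main tests treated all libraries as independent and did not use the pairing of treatments within a mouse.

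KLA moved most of the iron genes, and in both genotypes. Of the 7 genes that passed the filter on low values, 4 rose (Cp, Fth1, Slc11a2 and Slc11a1), 2 fell (Slc40a1 and Tfrc) and Ftl1 did not pass the test (limma, Benjamini-Hochberg adjusted p under 0.05 over all genes tested). Thus 6 of 7 were called in DKO macrophages, where 25.2% of all 15957 genes tested were called, 14.0% higher and 11.1% lower. The same 6 were called in LXR-positive macrophages, where 28.6% of all genes were called, 16.2% higher and 12.4% lower. The median log2 fold change of the 7 genes was 0.73 in DKO and 0.50 in LXR-positive macrophages, and that of all genes tested was -0.0038 in DKO and -0.0028 in LXR-positive macrophages. edgeR and DESeq2 on recovered reads each called 6 of the 7 genes in both genotypes. Within a genotype, the KLA, GW3965 and AcLDL comparisons share the 3 vehicle libraries.

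Markers of cell types moved with KLA as well. Of the 9 macrophage markers, 5 were called higher and 2 lower in DKO, and 4 higher and 2 lower in LXR-positive macrophages. Of 9 neutrophil markers tested, 5 were called lower in DKO and 8 in LXR-positive macrophages, and Mpo (myeloperoxidase) had log2 fold changes of -4.08 in DKO and -4.24 in LXR-positive macrophages. The neutrophil sums overlapped in DKO (3228 to 7115 normalized counts with KLA and 6167 to 8836 with vehicle) and were separate in LXR-positive macrophages (1961 to 2555 with KLA and 4152 to 4580 with vehicle). The 7 lymphoid markers summed to 81.1 to 101.0 with KLA and 195 to 270 with vehicle in DKO, and to 65.9 to 134 with KLA and 322 to 398 with vehicle in LXR-positive macrophages. Their part in the KLA results on the iron genes was not tested.

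**Figure D1:**
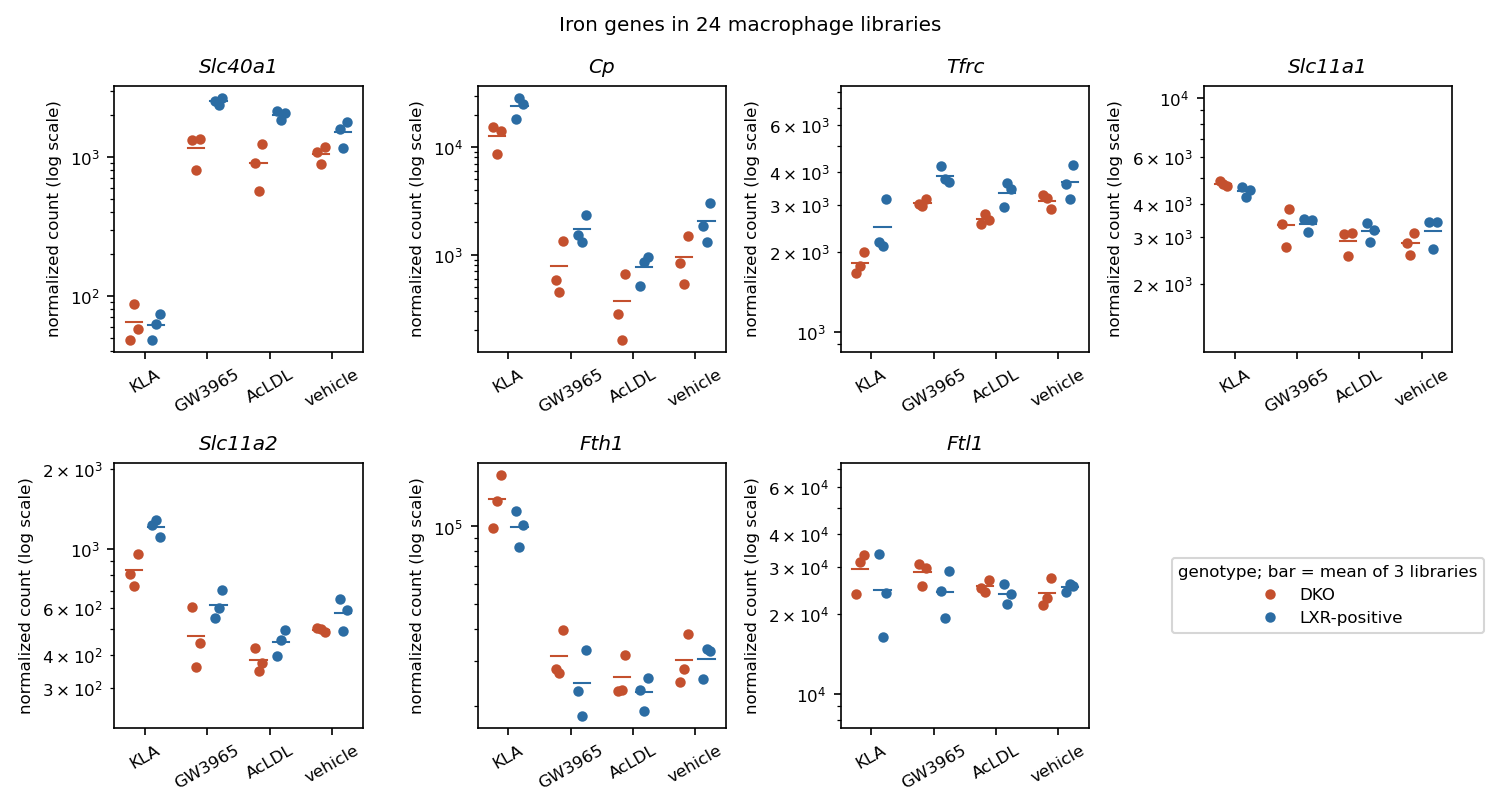
Normalized counts (log scale, vertical axis) of the 7 iron genes in each library, by treatment on the horizontal axis, with DKO left of LXR-positive. Each point is 1 library and each bar the mean of 3. All KLA libraries lie below the others for Slc40a1 (at most 86.9 normalized counts, against at least 567) and above them for Cp and Fth1.

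Uptake was split. Tfrc encodes transferrin receptor 1, which internalises iron-loaded transferrin. It had 1672, 1769 and 1997 normalized counts in DKO macrophages with KLA, against 3283, 3185 and 2898 with vehicle. In LXR-positive macrophages the 3 mice had 2184, 2116 and 3180 with KLA, against 3611, 3166 and 4253 with vehicle. The KLA and vehicle ranges did not overlap in DKO macrophages, and in LXR-positive macrophages the highest KLA library lay just above the lowest vehicle library. Tfrc fell by 0.79 ± 0.16 on the log2 scale in DKO (SE, adjusted p = 0.0033) and by 0.58 ± 0.16 in LXR-positive macrophages (adjusted p = 0.017), and it was lower with KLA in 3 of 3 mice of each genotype. In LXR-positive macrophages this call was lost without vehicle library 3 (adjusted p = 0.070), KLA library 1 (0.064) or KLA library 2 (0.059).

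Dividing cells are known to express much Tfrc, so the 12 cell cycle markers are given beside it. Their summed level ran from 5717 to 6742 normalized counts with KLA and from 7950 to 19945 with vehicle in DKO macrophages. In LXR-positive macrophages it ran from 5654 to 7915 with KLA and from 4357 to 16005 with vehicle. The DKO ranges did not overlap and the LXR-positive ranges did. Mki67, with a median of 3598 normalized counts, had the highest median of the 12. Singly, 6 of the 12 were called lower with KLA in DKO and 0 higher, and 0 were called in LXR-positive macrophages (limma). The part of this in the Tfrc result was not tested.

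Slc11a1 encodes NRAMP1, a divalent metal transporter of the phagosome. It had 4869, 4755 and 4658 normalized counts in DKO macrophages with KLA, against 2856, 2569 and 3115 with vehicle. LXR-positive macrophages had 4641, 4253 and 4501 with KLA, against 3420, 2712 and 3414 with vehicle. Every KLA library exceeded every vehicle library. Slc11a1 rose by 0.75 ± 0.11 on the log2 scale in DKO (adjusted p = 0.00041, limma) and by 0.50 ± 0.11 in LXR-positive macrophages (adjusted p = 0.0053).

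Slc11a2 encodes DMT1, which carries ferrous iron out of endosomes. It had 809, 729 and 960 normalized counts in DKO macrophages with KLA, against 505, 502 and 488 with vehicle. LXR-positive macrophages had 1230, 1289 and 1113 with KLA, against 650, 493 and 591 with vehicle. KLA and vehicle libraries were again separate in both genotypes. The log2 increase was 0.73 ± 0.13 in DKO (adjusted p = 0.0014, limma) and 1.07 ± 0.13 in LXR-positive macrophages (adjusted p = 8.0e-05). Of the exon bases of Slc11a2, 402 overlap a gene on the opposite strand (Gm5475), and the labels do not say whether reads were counted by strand.

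The ferritin chains parted. Fth1 encodes the heavy chain, whose ferroxidase centre oxidises iron for storage, and Ftl1 the light chain, which promotes the formation of the mineral core. Fth1 had 99029, 125351 and 159021 normalized counts in DKO macrophages with KLA, against 24828, 27859 and 38278 with vehicle. In LXR-positive macrophages it had 115331, 82862 and 101492 with KLA, against 25684, 33395 and 32709 with vehicle. Even the lowest KLA library was more abundant in Fth1 than the highest vehicle library of either genotype. The log2 fold change was 2.07 ± 0.21 in DKO (adjusted p = 2.8e-05, limma) and 1.70 ± 0.21 in LXR-positive macrophages (adjusted p = 0.00011).

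Ftl1 had 23800, 31500 and 33458 normalized counts in DKO macrophages with KLA, against 21522, 22995 and 27403 with vehicle. In LXR-positive macrophages it had 33578, 16423 and 24030 with KLA, against 24209, 25928 and 25563 with vehicle. The KLA and vehicle ranges overlapped in both genotypes. Its log2 fold change was 0.30 ± 0.22 in DKO (95% interval -0.19 to 0.78, adjusted p = 0.37) and -0.09 ± 0.22 in LXR-positive macrophages (interval -0.57 to 0.39, adjusted p = 0.79, limma), so a modest change in either direction was within the error.

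The ratio of Fth1 to Ftl1 normalized counts in a library shows the split without a comparison of lengths. It ran from 3.98 to 4.75 in DKO macrophages with KLA, against 1.15 to 1.40 with vehicle. In LXR-positive macrophages it ran from 3.43 to 5.05 with KLA, against 1.06 to 1.29 with vehicle. Ratios with GW3965 and AcLDL lay between 0.880 and 1.33 in all 12 libraries. Of 16 symbols that begin with Fth or Ftl, 9 were at 0 in every library, and 4 others averaged under 10 normalized counts. The exception was Ftl1-ps1, on chromosome 13, with a mean of 7098 normalized counts, so reads could be divided between it and Ftl1 and the Ftl1 values are uncertain. No such abundant copy was listed for Fth1.

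Among the 7 iron genes, the largest log2 changes were those of the export genes Slc40a1 and Cp. Slc40a1 encodes ferroportin, the only iron exporter known in mammals. It had 48.4, 86.9 and 57.5 normalized counts in DKO macrophages with KLA, against 1093, 893 and 1177 with vehicle. LXR-positive macrophages had 48.3, 62.9 and 74.4 with KLA, against 1592, 1150 and 1795 with vehicle. Means were 64.3 ± 20.1 with KLA and 1054 ± 146 with vehicle in DKO, and 61.8 ± 13.1 with KLA and 1512 ± 330 with vehicle in LXR-positive macrophages (SD, n = 3 each). The log2 fold change was -4.05 ± 0.24 in DKO (adjusted p = 4.1e-07, limma) and -4.59 ± 0.24 in LXR-positive macrophages (adjusted p = 1.7e-07). After KLA the genotypes differed by 0.03 ± 0.24 in log2 level (95% interval -0.49 to 0.55).

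Cp encodes ceruloplasmin, a copper ferroxidase that helps load released iron onto transferrin. It had 15348, 8632 and 14229 normalized counts in DKO macrophages with KLA, against 843, 534 and 1497 with vehicle. LXR-positive macrophages had 18188, 28471 and 24962 with KLA, against 1861, 1313 and 2995 with vehicle. The log2 increase was 3.82 ± 0.38 in DKO (adjusted p = 1.9e-05, limma) and 3.59 ± 0.38 in LXR-positive macrophages (adjusted p = 2.9e-05). Cp and Slc40a1, partners in iron release, therefore moved in opposite directions in all 6 mice. Of the exon bases of Cp, 108 overlap Hps3 on the opposite strand.

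Hamp, the hepcidin gene, was close to absent in these libraries. A total of 9 reads fell on it in 24 libraries, with no read in 17 libraries and at most 3 in any. The highest value was 2.13 normalized counts. A count of 0 allows up to 3 reads in a library, so no comparison was possible at this depth and Hamp was not tested.

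**Figure D2:**
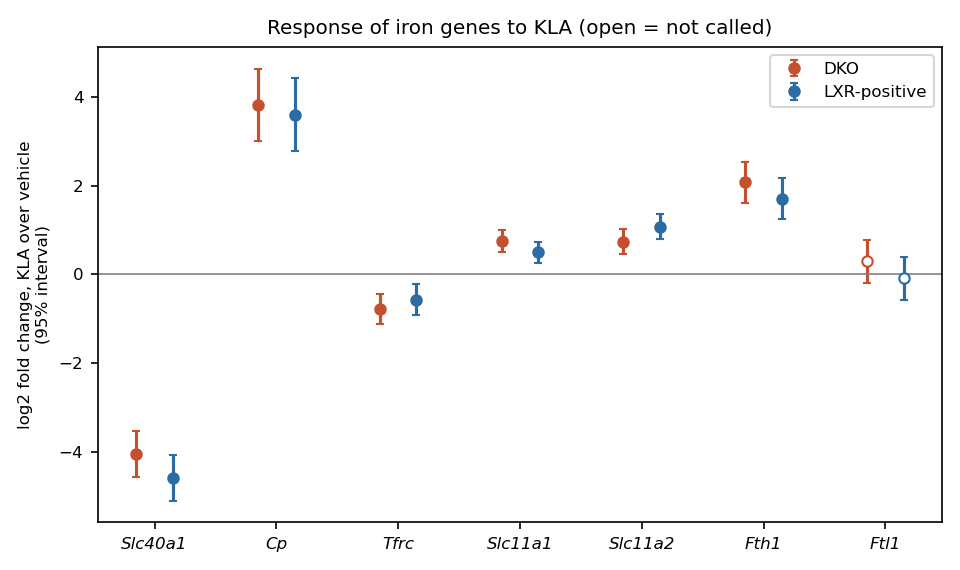
Log2 fold change of the 7 iron genes for KLA over vehicle (vertical axis), with 95% intervals, for DKO left and LXR-positive right of each gene name. Open points did not pass the test. Slc40a1 and Tfrc lie below 0, Ftl1 lies across it and the other genes lie above it in both genotypes.

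The KLA response itself was then compared between genotypes. For none of the 7 genes did the difference in response (DKO minus LXR-positive) pass the test, against 0.0689% of all 15957 genes tested, with limma adjusted p from 0.87 to 0.96, and 0 genes had an unadjusted p under 0.05. edgeR and DESeq2 called 0 as well. The estimates had wide intervals, for example 0.54 ± 0.34 log2 for Slc40a1 (interval -0.20 to 1.27) and -0.34 ± 0.18 for Slc11a2 (-0.74 to 0.06). These bounds do not show that the responses were alike. In the authors' deposited table the interaction for the same 7 genes had adjusted p between 0.893 and 0.99 for KLA.

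Other genes of iron and haem handling, taken from a list of 65 of which 63 were in the tables, showed changes of both signs with KLA. Of 48 that were tested, 12 rose and 10 fell in DKO, where 25.2% of all genes were called, and 13 rose and 9 fell in LXR-positive macrophages, where 28.6% were. In both genotypes 17 were called, 11 higher and 6 lower, against 18.6% of all genes tested. The direction was the same in both genotypes for these 17, as it was for 2959 of the 2965 genes called in both. The median log2 fold change over the 48 was 0.07 in DKO and 0.09 in LXR-positive macrophages. The list was assembled with results of these data known, so its counts are a description. Every gene named from it in the next paragraphs on KLA had a limma adjusted p of 0.0075 or less in both genotypes.

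Of 10 tested uptake and reduction genes, 3 rose and 5 fell in each genotype. Hp (haptoglobin, which binds free haemoglobin) rose by 5.51 ± 0.29 log2 in DKO and 6.01 ± 0.29 in LXR-positive macrophages. Lcn2 (lipocalin 2, which binds bacterial siderophores and so withholds iron) rose by 4.35 ± 0.18 in DKO and 5.00 ± 0.18 in LXR-positive macrophages. Trf, the transferrin gene, had a log2 fold change of -2.96 ± 0.26 in DKO and -3.50 ± 0.26 in LXR-positive macrophages. Its exons share 2108 bases with Gm20425 on the same strand, so its reads may be divided. The haptoglobin-haemoglobin receptor gene Cd163 fell by 1.99 ± 0.33 log2 in DKO and 1.93 ± 0.33 in LXR-positive macrophages. The zinc and iron carriers Slc39a8 and Slc39a14 went opposite ways, with log2 fold changes of -1.69 ± 0.20 and 1.05 ± 0.20 in DKO and -1.33 ± 0.20 and 1.17 ± 0.20 in LXR-positive macrophages.

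Of 8 haem recycling genes, 3 rose and 1 fell in DKO, and 3 rose and 2 fell in LXR-positive macrophages. Hmox1 (haem oxygenase 1, which frees iron from haem) rose by 1.93 ± 0.15 log2 in DKO and 1.68 ± 0.15 in LXR-positive macrophages. Slc48a1, which moves haem out of the phagosome, rose by 1.41 ± 0.14 in DKO and 1.15 ± 0.14 in LXR-positive macrophages. Bach1, whose product senses haem and is a known repressor of Hmox1, had log2 fold changes of -0.91 ± 0.11 in DKO and -1.34 ± 0.11 in LXR-positive macrophages. The part of Bach1 in the Hmox1 result was not tested. The mitochondrial iron importer gene Slc25a37 rose by 1.87 ± 0.25 in DKO and 1.79 ± 0.25 in LXR-positive macrophages, and Alas1, the first enzyme of haem synthesis, by 1.01 ± 0.23 and 1.10 ± 0.23. Of 15 tested genes of haem synthesis and mitochondrial iron, 4 rose and 1 fell in DKO, and 5 rose and 0 fell in LXR-positive macrophages. Of 10 regulators, 2 rose and 2 fell in each genotype. Hif1a rose by 1.64 ± 0.27 and 1.74 ± 0.27 in DKO and LXR-positive macrophages, and Hfe had log2 fold changes of -0.88 ± 0.15 and -1.44 ± 0.15. The iron-sensing ubiquitin ligase subunit Fbxl5 rose by 0.81 ± 0.14 in DKO and 0.91 ± 0.14 in LXR-positive macrophages. Hif1a, Fbxl5 and Slc48a1 share 330, 98 and 29 exon bases with a gene on the opposite strand. The 10 erythroid markers summed to 1.5 to 52.8 normalized counts in any library.

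**Figure D3:**
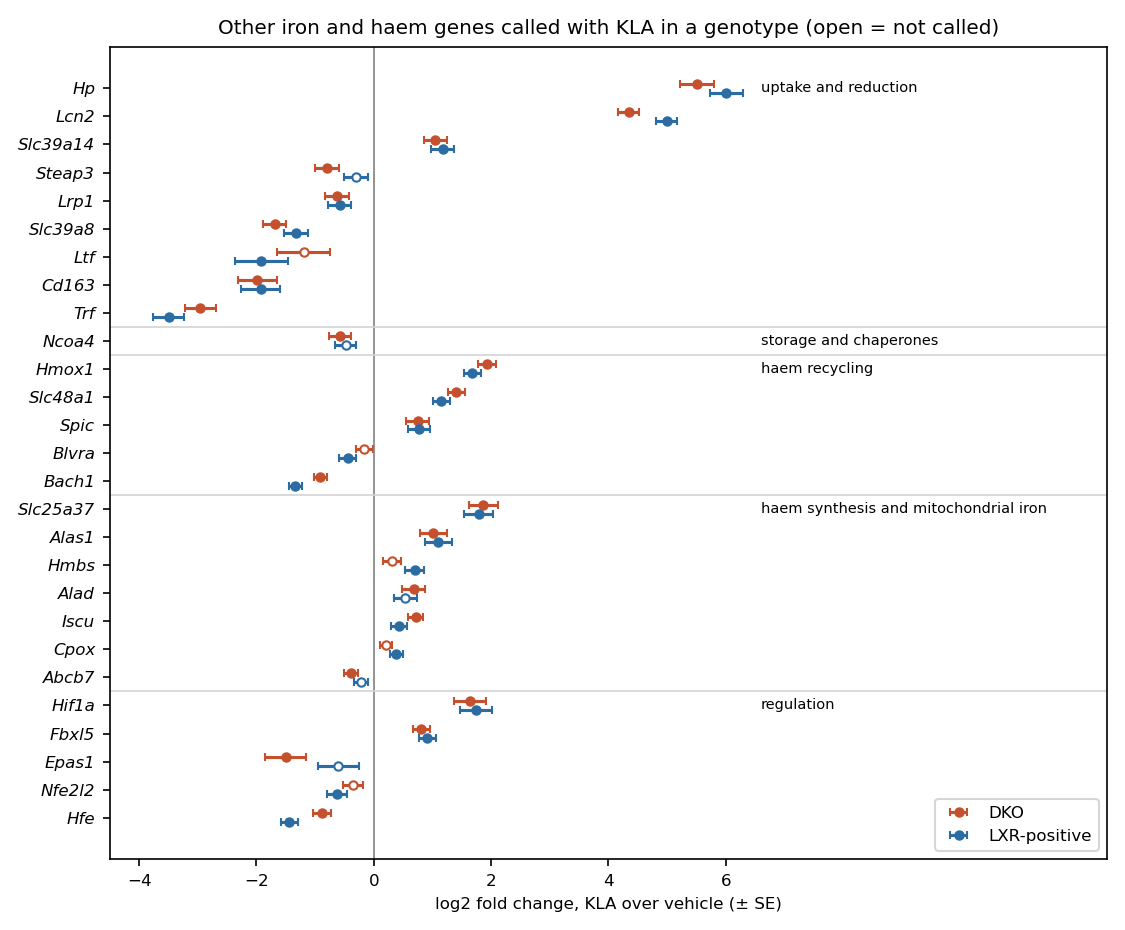
Log2 fold change, KLA over vehicle, with its SE for the 27 other iron and haem genes called in at least 1 genotype, grouped by role. DKO is drawn above LXR-positive for each gene, and open points did not pass the test. Hp and Lcn2 stand farthest to the right and Trf farthest to the left.

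GW3965 changed no iron gene past the threshold in either genotype. The treatments were checked with a list of 9 genes (Il1b, Il6, Nos2, Ptgs2, Abca1, Abcg1, Srebf1, Nr1h2 and Nr1h3), of which 7 were tested here. With GW3965, limma called 3 of them higher in LXR-positive and 0 in DKO macrophages. With AcLDL it called 2 higher in LXR-positive and 0 in DKO macrophages. Of the 7 genes, 0 were called in DKO (0.00621% of all 16116 genes tested) and 0 in LXR-positive macrophages (0.267%), with edgeR and DESeq2 also calling 0. Unadjusted p was under 0.05 for 0 genes in DKO and 1 in LXR-positive macrophages, Slc40a1. Ferroportin transcripts had 1324, 807 and 1338 normalized counts in DKO macrophages with GW3965, against 1093, 893 and 1177 with vehicle. LXR-positive macrophages had 2540, 2381 and 2651 with GW3965, against 1592, 1150 and 1795 with vehicle, and these ranges did not overlap. The log2 fold change was 0.10 ± 0.21 in DKO (adjusted p = 0.98, limma) and 0.76 ± 0.21 in LXR-positive macrophages (95% interval 0.31 to 1.21, adjusted p = 0.31), with the level higher in 2 of 3 DKO and 3 of 3 LXR-positive mice. The other 6 genes tested, Cp, Tfrc, Slc11a1, Slc11a2, Fth1 and Ftl1, had log2 fold changes from -0.31 (Cp) to 0.26 (Ftl1) in DKO and from -0.34 (Fth1) to 0.10 (Slc11a2) in LXR-positive macrophages, each uncalled, and Hamp was not tested. For Slc40a1 the difference in response was -0.66 ± 0.29 log2 (interval -1.29 to -0.02), which did not pass adjustment over all genes (adjusted p = 0.99). The other 6 genes had no difference in response with an unadjusted p under 0.05, edgeR and DESeq2 called 0 of the 7, and 0.118% of all genes passed.

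AcLDL likewise gave 0 of 7 calls in DKO (0.125% of all 16026 genes) and 0 of 7 in LXR-positive macrophages (0.225%), by limma, edgeR and DESeq2. At an unadjusted p under 0.05 there were 2 genes in DKO (Slc11a2 and Cp) and 3 in LXR-positive macrophages (Slc11a2, Fth1 and Cp). Cp had 284, 162 and 664 normalized counts in DKO macrophages with AcLDL, against 843, 534 and 1497 with vehicle. LXR-positive macrophages had 510, 856 and 947 with AcLDL, against 1861, 1313 and 2995 with vehicle. The level was lower with AcLDL in all 6 mice. The log2 fold change was -1.48 ± 0.50 in DKO (adjusted p = 0.66, limma) and -1.38 ± 0.50 in LXR-positive macrophages (adjusted p = 0.30). Slc11a2 had log2 fold changes of -0.39 ± 0.13 in DKO (adjusted p = 0.64) and -0.36 ± 0.13 in LXR-positive macrophages (adjusted p = 0.29), and was lower with AcLDL in all 6 mice. Fth1 was likewise lower in all 6, with -0.22 ± 0.19 in DKO (adjusted p = 0.90) and -0.43 ± 0.19 in LXR-positive macrophages (adjusted p = 0.38). Slc40a1 had log2 fold changes of -0.28 ± 0.25 in DKO (adjusted p = 0.90, limma) and 0.43 ± 0.25 in LXR-positive macrophages (adjusted p = 0.50). Its level was higher with AcLDL in 1 of 3 DKO and 3 of 3 LXR-positive mice. In LXR-positive macrophages its range was 1830 to 2139 with AcLDL and 1150 to 1795 with vehicle. Tfrc had log2 fold changes of -0.23 ± 0.12 in DKO and -0.13 ± 0.12 in LXR-positive macrophages, and those of Slc11a1 and Ftl1 lay between -0.08 and 0.09 in both, none of them called. Hamp was not tested. With the mouse as a block, Cp was called, with adjusted p of 0.042 in DKO and 0.025 in LXR-positive macrophages, where the same fit called 0.237% and 1.54% of all genes. Of the 7 genes, 0 passed the test of a difference between genotypes in the AcLDL response (0 by edgeR and DESeq2, 0 at an unadjusted p under 0.05), against 0.0250% of all genes, and the Slc40a1 difference was -0.71 ± 0.35 log2 (interval -1.47 to 0.05).

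**Figure D4:**
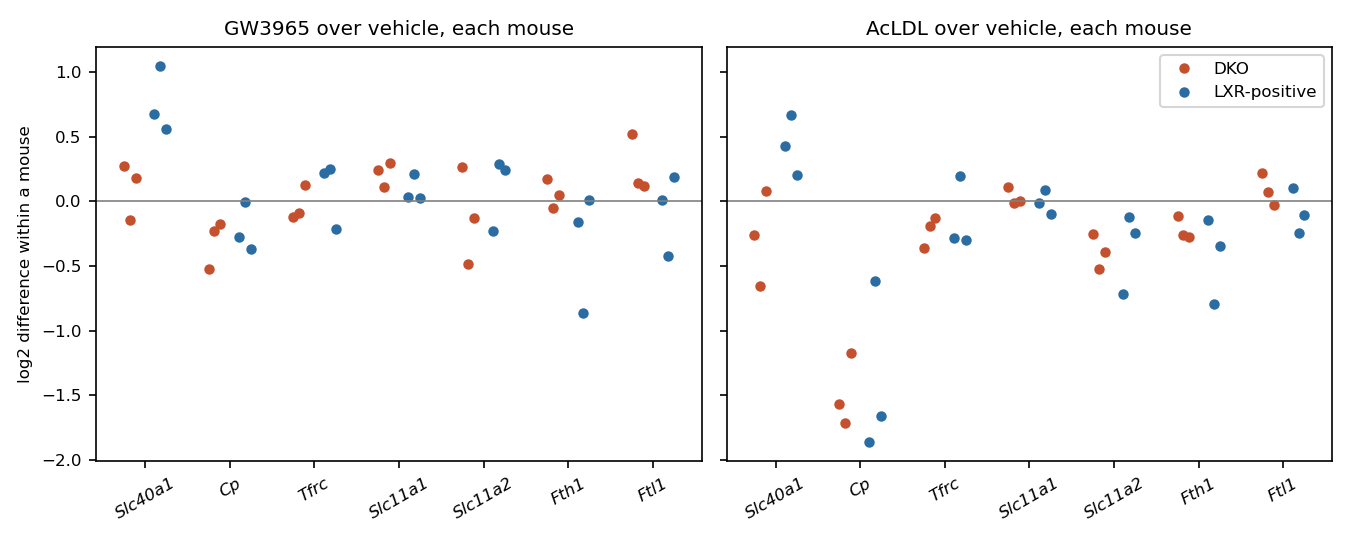
Log2 difference from the vehicle library of the same mouse (vertical axis) for GW3965 and AcLDL, for the 7 iron genes, with DKO left of LXR-positive. Each point is 1 mouse. The Slc40a1 points of the 3 LXR-positive mice lie above 0 under both treatments, and all 6 Cp points lie below 0 with AcLDL.

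Genotype was compared within each treatment. Slc40a1 was lower in DKO than in LXR-positive macrophages with GW3965 and with AcLDL. With GW3965 it had 1324, 807 and 1338 normalized counts in DKO, against 2540, 2381 and 2651 in LXR-positive macrophages, a log2 difference of -1.16 ± 0.21 (adjusted p = 0.0077, limma). With AcLDL it had 910, 567 and 1247 in DKO, against 2139, 1830 and 2067 in LXR-positive macrophages, a difference of -1.22 ± 0.25 (adjusted p = 0.016). The libraries of the genotypes did not overlap under either treatment. The AcLDL call was lost without LXR-positive AcLDL library 2 (adjusted p = 0.0505) or DKO AcLDL library 2 (0.067). With vehicle the difference was -0.51 ± 0.21 (adjusted p = 0.36), and the test of whether the genotype difference changed with treatment is the difference in response given above.

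Macrophage, stromal and cell cycle markers in the 2 genotypes are compared here under the 4 treatments. The 9 macrophage markers summed to 190277 to 251386 normalized counts in DKO and 263852 to 302491 in LXR-positive macrophages with GW3965, and to 139696 to 182376 in DKO and 220872 to 256247 in LXR-positive macrophages with AcLDL. With KLA the sums were 297171 to 338852 in DKO and 377563 to 449971 in LXR-positive macrophages, and with vehicle 175531 to 209459 in DKO and 223912 to 297763 in LXR-positive macrophages. The sums were lower in DKO without overlap under all 4 treatments, but they are mostly Lyz2, with a median of 165758 normalized counts, and single markers went both ways. With GW3965, 1 of the 9 was called higher in DKO (Cd68, log2 difference 0.59) and 1 lower (Mertk, -0.95), and with AcLDL 1 was called higher (Cd68, 0.56) and 2 lower (Mertk, -0.76, and Lyz2, -0.80). With KLA and with vehicle 0 of the 9 were called. The sums of 7 stromal markers were separate with GW3965 (1534 to 7979 in DKO and 231 to 785 in LXR-positive macrophages) and overlapped under the other treatments. The 12 cell cycle markers summed to 8773 to 20565 in DKO and 4279 to 12443 in LXR-positive macrophages with GW3965. With AcLDL they summed to 11053 to 28263 in DKO and 7498 to 16568 in LXR-positive macrophages. Genotypes overlapped in these sums under all 4 treatments. Singly, 1 was called higher in DKO with AcLDL and 0 under the other treatments. The 10 neutrophil markers are given with the neutrophil products below. The part of these markers in the genotype differences of Slc40a1, Slc11a2 and Tfrc was not tested.

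In each of these genotype comparisons 1 of 7 genes was called by limma, against 9.64% of all genes with GW3965 (5.44% lower in DKO) and 8.60% with AcLDL (4.85% lower). With KLA, 1 of 7 was called, Slc11a2, against 6.87% of all genes (3.87% lower), with a log2 difference of -0.55 ± 0.13 (adjusted p = 0.030). The Slc11a2 call was lost without any 1 of 5 KLA libraries (adjusted p from 0.051 to 0.12), namely all 3 LXR-positive and DKO libraries 1 and 2. Slc11a2 was also lower in DKO on average under the other treatments, without a limma call. Its log2 difference was -0.42 ± 0.17 with GW3965 (adjusted p = 0.14, limma), -0.23 ± 0.13 with AcLDL (0.28) and -0.20 ± 0.17 with vehicle (0.66). With vehicle, 0 of 7 were called by limma, edgeR or DESeq2, 2 had an unadjusted p under 0.05 (Slc40a1 and Cp), and 0.316% of all genes were called. Slc11a1, Fth1 and Ftl1 had log2 differences between -0.16 and 0.37 under the 4 treatments, none of them called, and Hamp was not tested. Tfrc was lower in DKO on average under all 4 treatments, by -0.23 to -0.44 log2, with adjusted p of 0.068 or more. Its genotypes overlapped with vehicle but not with KLA, GW3965 or AcLDL, where its unadjusted p was under 0.05 (limma). Cp was lower in DKO under all 4 treatments on average, by -0.93 to -1.25 log2, but its adjusted p was 0.099 or more, and the genotypes overlapped with vehicle, GW3965 and AcLDL but not with KLA.

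Of 49 listed iron and haem genes tested (48 with KLA), the genotype comparison called 6 higher and 4 lower in DKO with GW3965, where 9.64% of all genes were called, and 3 higher and 1 lower with AcLDL, where 8.60% were. It called 1 lower with KLA (Abcb10), where 6.87% were, and 0 with vehicle, where 0.316% were (13 at an unadjusted p under 0.05, 0 by edgeR and by DESeq2). Lcn2, Ltf and Hp were higher in DKO with both GW3965 and AcLDL. Their log2 differences were 1.09 ± 0.26, 1.00 ± 0.28 and 1.15 ± 0.25 with GW3965 and 0.97 ± 0.19, 1.26 ± 0.20 and 1.08 ± 0.29 with AcLDL, with limma adjusted p from 0.019 to 0.046 and from 0.0063 to 0.041. The GW3965 count of 10 was 0 without DKO library 2, 1 without LXR-positive library 1, 3 without LXR-positive library 2 or DKO library 1, and 6 without LXR-positive library 3. The AcLDL count of 4 was 1 without library 2 of either genotype, 2 without DKO library 1 and 6 without DKO library 3. The Hp call with AcLDL was lost with edgeR, with no filter, or without any 1 AcLDL library except LXR-positive library 1. The Ltf call with GW3965 was lost with edgeR, with no filter, or without any 1 GW3965 library except LXR-positive library 3. The Hp and Lcn2 calls with GW3965 were lost without LXR-positive library 1 or 2 or DKO library 2. The Lcn2 call with AcLDL was lost without library 2 of either genotype, while the Ltf call with AcLDL held without each. The Abcb10 call with KLA (-0.78 ± 0.18 log2, adjusted p = 0.029) was lost without any 1 of the 6 KLA libraries (adjusted p from 0.057 to 0.092). Lcn2, Ltf and Hp are also known products of neutrophils and their precursors. The 10 neutrophil markers, Ltf among them, had 9 tested, of which 7 were called higher in DKO with GW3965, 6 with AcLDL, 3 with KLA and 0 with vehicle. They summed to 7709 to 11274 normalized counts in DKO and 3603 to 6311 in LXR-positive macrophages with GW3965, and to 5927 to 8389 in DKO and 3060 to 3539 in LXR-positive macrophages with AcLDL. With KLA the sums were 3228 to 7115 in DKO and 1961 to 2555 in LXR-positive macrophages, and with vehicle 6167 to 8836 in DKO and 4152 to 4580 in LXR-positive macrophages, so they were separate under all 4 treatments. Of the 10, Ly6g was at 0 in 6 libraries, Retnlg in 3 and Prtn3 in 1, and the part of these markers in the differences of Lcn2, Ltf, Hp and Abcb10 was not tested. No listed gene was called for GW3965 or AcLDL against vehicle in either genotype, by limma, edgeR or DESeq2.

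Over all 24 libraries, log2 levels of the iron genes ran parallel to those of other genes, and for Slc40a1, Cp, Fth1, Slc11a1 and Slc11a2 the KLA libraries stood apart from all others, so their r has no meaning within a treatment. Pearson's r of log2 values is a description here, since the libraries share mice and normalization. Slc40a1 was most like Slc46a3 (r = 0.987), Arhgap19 (0.983) and Dnajb14 (0.983). Cp was most like Ncf1 (0.982), Fth1 was most like Prdx5 (0.990) and Nfkbia (0.976), and Slc11a2 was most like Rac2 (0.954). Slc11a1 was most like Slc48a1 (0.929), Tfrc like Ndst1 (0.936) and Ftl1 like Clec4d (0.857).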

How the data were processed

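RNA was measured in 24 libraries, 6 mice by 4 treatments. Each was made from 500 ng of total RNA with a stranded kit and sequenced as single 50-base reads, per the labels' protocols and the design text. The submitters' processing notes name kallisto, DESeq2 and the build GRCm38. Their versions, the annotation and the strand setting were not given in the sources used here. A signal of normalized counts per gene and library was deposited by the authors in 3 tables, 1 per treatment with its vehicle libraries. They also deposited log2 fold changes, adjusted p-values and a score, the Wald statistic, for the interaction of genotype and treatment. The deposited score was not used. Whole reads were recovered in 100% of deposited values within 0.01 read, and 0 columns were left unmapped.

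The main test was limma-trend (3.58.1, R 4.3.3) on log2(value + 1), which understates changes of low genes. It used 4 group means over the 12 libraries of a treatment and its vehicle, and genes with at least 10 normalized counts in at least 3 of them. Vehicle libraries of the genotypes were compared in the GW3965 fit. P-values were adjusted by Benjamini-Hochberg over all genes tested and called under 0.05. Count tests on recovered reads, edgeR (4.0.16) and DESeq2 (1.42.0), were alternatives. They called 6 of 7 iron genes with KLA in each genotype and 0 with GW3965 or AcLDL. Other alternatives were a pseudocount of 8, no filter, TMM scaling, all 24 libraries in 1 fit, a replicate block and leaving out each library. The limma script was tested on simulated data.

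The design text gives 6 mice in 4 treatments, so same-numbered libraries of a genotype share a mouse. For 36 pairs of such libraries, the r of their deviations from the group mean had a median of 0.139 (-0.0094 to 0.341). The members and gene lists were chosen with earlier results of these data known. The naming rule covers all 8 iron genes in every comparison (given singly or as a range), other listed genes where called, limited to those with the largest changes, and for each member the genes with the highest r among those averaging at least 100 normalized counts. Gene positions come from the tables and UTRs from GENCODE M21, which places Fth1 differently and the other 7 genes identically.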

Additional observations from a re-analysis of the deposited data

How the results depend on the processing

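Of 1309 values of iron genes under alternatives, 1290 stayed on the same side of the threshold, 10 lost a call (each by leaving out a library), 9 gained one and 0 called values reversed. With the mouse as replicate block, the count of iron genes called with AcLDL was 1 in DKO and 1 in LXR-positive macrophages (Cp), against 0 without it, and it changed no other call of these genes for a treatment. With the replicate number as a block, a number that does not pair mice across genotypes (r from -0.116 to 0.167 over 12 pairs, 3 over 0.1), genotype comparisons called 1 iron gene with vehicle, 2 with GW3965 and 2 with AcLDL, and 2 other iron and haem genes with vehicle and 7 with AcLDL. The r values over 0.1 were all of replicate 3, at 0.167 with vehicle, 0.155 with AcLDL and 0.103 with KLA. With all 24 libraries in 1 fit, the KLA genotype comparison called 2 iron genes, and with DESeq2 the GW3965 one called 2.

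Among other iron and haem genes, the KLA genotype comparison (1 call) gave 2 with a pseudocount of 8, 3 with TMM scaling, 5 with DESeq2 and 4 with all 24 libraries. The GW3965 one (10 calls) gave 5 with no filter and 6 with edgeR, and the AcLDL one (4 calls) gave 2 with edgeR and 13 with DESeq2. The cause was not tested. Leaving out single libraries gave 0 to 2 iron genes for the AcLDL, 1 to 2 for the GW3965 and 0 to 1 for the KLA genotype comparison. For the other genes it gave 1 to 6 with AcLDL, 0 to 7 with GW3965 and 0 to 1 with KLA. TMM scaling moved the median of all genes by at most 0.056 log2. Hamp was below what this depth can compare.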
